A study of Sus scrofa with 12 samples.

Results

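The genes described here are 44 genes of the DNA damage response and of DNA repair, chosen by name from damage signalling, homologous recombination, end joining, base excision repair, mismatch repair, the Fanconi pathway and the GADD45 family. Of these, 41 had a row of their own in a table of 29329 genes and all 41 passed the filter on low counts, among 17995 genes tested. XRCC3, XRCC4 and OGG1 were not analysed here. The libraries were made by SMART-seq, which copies polyadenylated RNA into cDNA and amplifies it, from porcine embryos produced by in vitro fertilisation, each library being a pool of several embryos. Control embryos (con, labelled as a blank control) were compared with embryos injected with si-CCNB2 (si), a short interfering RNA against cyclin B2, with 3 libraries in each of 4 groups, the controls con-2c and con-4c and the injected si-2c and si-4c. No strain, age or further allele or agent was given for a group in the labels. The labels name the controls a blank control, while the methods describe a negative control prepared for injection, which left it unclear whether these control embryos had been injected, so that injection itself can be part of any si-minus-control value. Titles and tissue labels gave opposite stages for all 12 libraries, so that 2c and 4c stand for the titles alone and the direction of time between them was not settled. Because the labels disagreed, si-4c was also compared with con-2c, and si-2c with con-4c.

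Cells meet DNA lesions with kinases that sense them, ATM at broken ends and ATR at stretches of single-stranded DNA, and these switch on the checkpoint kinases CHEK2 and CHEK1 and, through p53, target genes such as GADD45A. Broken ends are either trimmed by the MRE11-RAD50-NBN complex with RBBP8 and copied from the sister chromatid by homologous recombination, or held by the Ku proteins and joined directly, while damaged bases, mispaired bases and crosslinks are handled by base excision, mismatch and Fanconi repair. The early embryo divides first on proteins and mRNAs stored in the egg, many of which are cleared as transcription from its own genome begins, and an mRNA level counts stored and newly made transcripts together.

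Total counts were between 27785233 and 39510908 per library, and levels are given as CPM (counts scaled to a common library size) after TMM scaling, which serves for comparing 1 gene between libraries and not 1 gene with another. CCNB2 (ENSSSCG00000004588), the targeted cyclin, was at 464 ± 21.7 CPM over con-2c, 475 ± 41.9 over con-4c, 22.7 ± 5.58 over si-2c and 42.6 ± 3.65 over si-4c (SD, n = 3). The highest of the 6 si libraries was under the lowest of the 6 control libraries, with a log2 fold change of -4.36 (SE 0.15) for si-2c versus con-2c and -3.48 (SE 0.14) for si-4c versus con-4c (edgeR adjusted p = 1.53e-12 and 5.14e-12). Of 12 of 13 oocyte and early embryo markers with a row, none was at 0 in a group, and their summed level was 21004 to 25854 CPM in con-2c and 23904 to 26180 in si-4c but lower in con-4c (11099 to 11830) and si-2c (11150 to 12970). BTG4, which helps to clear stored mRNA, made up most of that sum, with means of 18571 CPM for con-2c, 7682 for con-4c, 7897 for si-2c and 19671 for si-4c, while BMP15 averaged 887 CPM for con-2c, 985 for con-4c, 1228 for si-2c and 1046 for si-4c. At an edgeR adjusted p below 0.05, 8 of the 12 were lower and 0 higher in con-4c than con-2c, against 15.1% and 20.7% of all genes. In si-2c versus con-2c 5 of the 12 were lower and 1 higher, against 12.3% and 16.6% of all genes. Of 11 of 15 cumulus and granulosa markers with a row, the sum was 294 to 372 CPM for con-2c, 179 to 191 for con-4c, 173 to 201 for si-2c and 294 to 304 for si-4c, with HAS2, CYP11A1 and FOXL2 at 0 throughout con-2c, si-2c and si-4c, PTX3 at 0 throughout con-2c as well, and none of the 11 at 0 throughout con-4c. VCAN, a matrix proteoglycan, made up nearly all of this sum, and the median log2 fold change of the 7 markers tested was 0.28 for con-4c versus con-2c and 0.60 for si-2c versus con-2c, opposite in sign to the change of the sum. The 3 of 11 sperm markers with a row summed to 0 in con-2c and si-4c, to between 0 and 0.658 CPM for con-4c and between 0.390 and 1.35 CPM for si-2c, with ACR at 0 in con-4c. The part of these marker differences in the results below was not tested, and in such bulk libraries fewer cells of a type and less RNA per cell cannot be told apart.

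Summed over the 41 genes the repair transcripts came to 4584 ± 256 CPM over con-2c, 4107 ± 94.0 over con-4c, 3903 ± 136 over si-2c and 4735 ± 44.6 over si-4c (n = 3). The order of these sums depends on the TMM factors, and sums with library totals are not given here. The factors were 0.852 to 0.962 in con-2c, 1.06 to 1.09 in con-4c, 1.12 to 1.21 in si-2c and 0.871 to 0.915 in si-4c. Between replicate libraries the members had a median coefficient of variation of 9.15% for con-2c, 8.10% for con-4c, 8.77% for si-2c and 7.55% for si-4c, against 20.6%, 18.3%, 19.9% and 18.2% over all genes tested. The members were not matched to other genes by level, here or in the shares within 0.5 of no change below. With genes kept at 1 CPM or more in 3 libraries, 39 of the 41 members stayed, and 12837 genes in place of 17995. The largest differences were in few of the members. CHEK2, GADD45A, GADD45B, FANCA, NBN, XRCC2 and BLM were the members that passed both thresholds, an adjusted p under 0.05 and a log2 fold change of 1 or more in size, in some comparison of 2 groups. A further 4 (ATRIP, RAD50, RAD51C and MSH3) passed both thresholds, with all 12 libraries, only in the test of whether the si-minus-control difference differed between the titles. RAD51C also passed both for con-4c versus con-2c without con-2c replicate 3 (-1.15) or con-4c replicate 2 (-1.01). So did ATRIP for si-2c versus con-2c without con-2c replicate 1 (-1.08) or si-2c replicate 2 (-1.04). Another 15 members passed the adjusted p alone, with log2 fold changes between -0.51 and 0.50, and the last 15 were called in no comparison of 2 groups, although 10 of these were called in at least 1 when library totals replaced TMM factors.

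**Figure D1:**
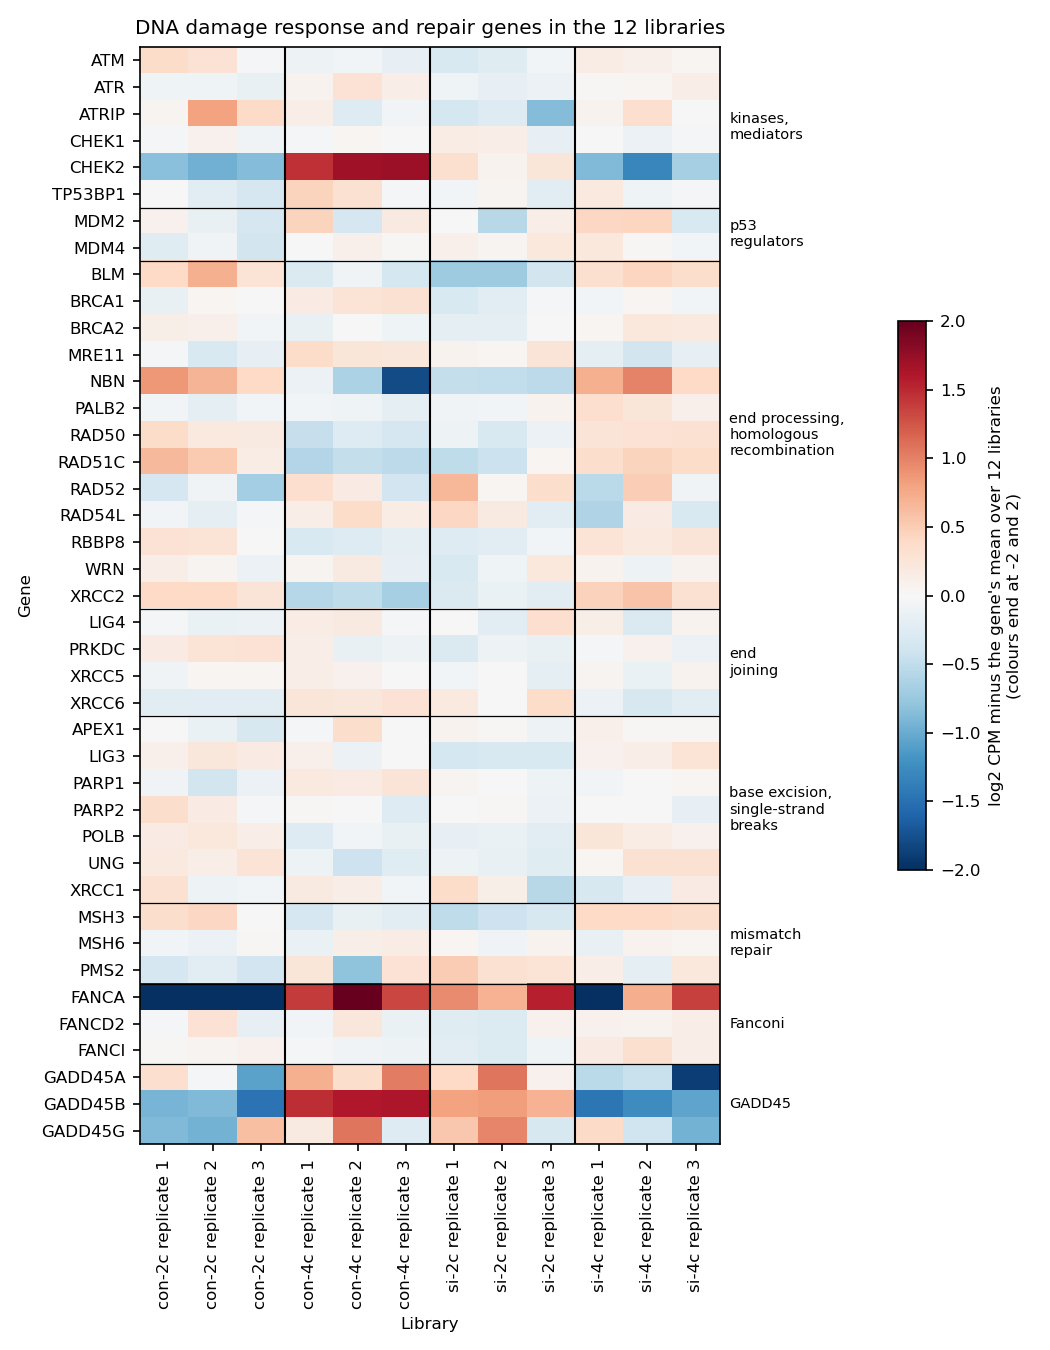
Level of each of the 41 genes in each of the 12 libraries, as log2 CPM (prior count 2) centred on the gene's own mean, with genes in rows by role and libraries in columns by group. CHEK2 and GADD45B stand out as high in all con-4c libraries and low in all con-2c and si-4c libraries, while XRCC2, RAD51C and BLM run the other way.

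Between the control groups, con-4c had higher CHEK2, GADD45B and FANCA and lower NBN than con-2c, 4 of 41 members past both thresholds where 17.7% of all genes tested passed (14.4% higher and 3.25% lower). On the adjusted p alone, 8 members were higher and 10 lower, against 20.7% higher and 15.1% lower over all genes (35.8% in all). The median member differed by a log2 fold change of 0.03, with quartiles at -0.32 and 0.32, while the median over all genes was 0.11, and 73.2% of members against 45.4% of all genes lay within 0.5 of no change. The libraries of the groups did not overlap for 25 of 41 members, against 48.6% of all genes.

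Between si-2c and con-2c the members past both thresholds were CHEK2, GADD45B and FANCA, higher in si-2c, and NBN and BLM, lower, 5 of 41 where 12.5% of all genes passed (10.7% higher and 1.8% lower). On the adjusted p alone 6 were higher and 14 lower, against 16.6% and 12.3% of all genes (29% in all), and libraries were apart for 22 of 41, against 41.7%. The median log2 fold change was -0.04 for the members and 0.12 over all genes. Without con-2c replicate 2, BLM stood at -0.93 and dropped below the minimum fold. With library totals 6 members were higher and 0 lower past both thresholds, with RAD52, PMS2 and GADD45A gained and NBN and BLM lost.

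Between si-4c and con-4c the picture was turned, in that NBN and XRCC2 were higher in si-4c and CHEK2, GADD45A and GADD45B lower, 5 of 41 where 19% of all genes passed (3.12% higher and 15.8% lower). On the adjusted p alone 12 members were higher and 6 lower, against 15.1% and 21.7% of all genes (36.8% in all), and libraries were apart for 20 of 41, against 50.9%. The median was 0.02 for the members and -0.11 over all genes. XRCC2 lay close to the minimum fold and fell to 0.99 without con-4c replicate 3 and to 0.97 without si-4c replicate 2, and it was 0.77 with library totals and 0.99 with DESeq2's size factors, in the DESeq2 test and with genes kept at 1 CPM or more, which left 4 members past both thresholds.

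Between the si groups, si-4c had higher NBN and lower CHEK2, GADD45A and GADD45B than si-2c, 4 of 41 where 13.3% of all genes passed (1.47% higher and 11.9% lower). On the adjusted p alone 15 members were higher and 5 lower, against 12.1% and 16.9% of all genes (28.9% in all), with a member median of 0.10 and an all-gene median of -0.13. Libraries were apart for 22 of 41 members, against 42.8% of all genes. NBN fell to 0.84 with library totals, below the minimum fold, which left 0 members higher and 3 lower past both thresholds. CHEK2 stood at -0.98 (edgeR adjusted p = 9.65e-05) without si-4c replicate 2. BLM passed both thresholds, at 1.09, without si-2c replicate 3. GADD45A lost its call without si-2c replicate 2 (log2 fold change -1.10, edgeR adjusted p = 0.0907) or without si-4c replicate 3 (-1.08, 0.0684).

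The crossed comparisons gave few differences. Between si-4c and con-2c edgeR called 0 of 41 members, where 0.333% of all genes passed both thresholds (0.0333% higher and 0.3% lower) and 0.672% the adjusted p alone (0.106% higher and 0.567% lower). At an unadjusted p below 0.05 there were 4 members, DESeq2 called FANCA past both thresholds, and so did edgeR without si-4c replicate 1, where the count was 1. PALB2 was called higher in si-4c on the adjusted p alone by DESeq2 (0.32, DESeq2 adjusted p = 0.00432). The same call came from edgeR without si-2c replicate 3 (0.33, edgeR adjusted p = 0.0484). The libraries were apart for 8 of 41 members (14.1% of all genes), and 39 of 41 lay within 0.5 of no change (95.1%, against 72.7% of all genes). Between si-2c and con-4c only CHEK2 passed both thresholds, lower in si-2c, where 1.79% of all genes passed (0.161% higher and 1.63% lower). On the adjusted p alone XRCC2 was higher and CHEK2, GADD45B, BRCA1 and LIG3 were lower, against 7.54% of all genes (2.22% higher and 5.32% lower), and libraries were apart for 10 of 41 (27.1%). The number lower was 2 without con-4c replicate 1, con-4c replicate 3, si-2c replicate 1 or si-2c replicate 2, in place of 4. The crossed and the matched comparisons share libraries, so their lists are not independent of each other.

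**Figure D2:**
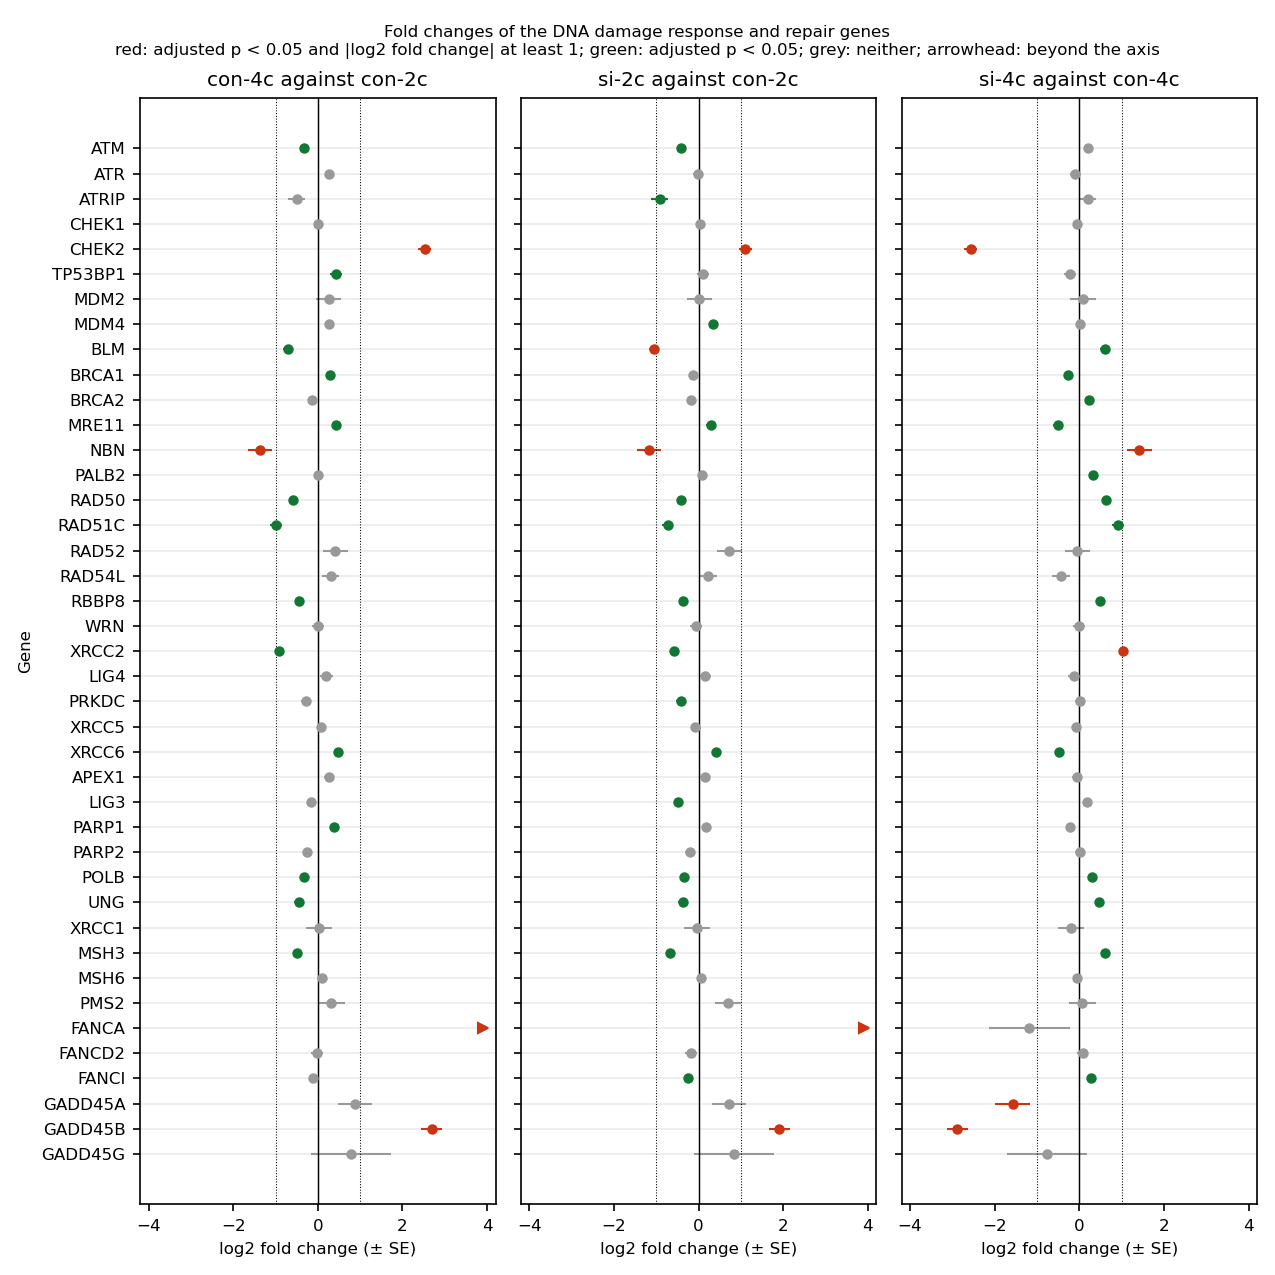
Log2 fold change of each of the 41 genes (horizontal axis, bars of 1 SE) in 3 comparisons, ordered by role, with points in red past both thresholds, in green past the adjusted p alone and in grey past neither. Arrowheads mark FANCA versus con-2c, which lies beyond the axis and depends on the prior count because con-2c had 0 counts of it, and 30 of 41 points lie within 0.5 of 0 for con-4c versus con-2c.

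The split into higher and lower depended on how libraries were scaled. With library totals in place of TMM factors the median over all genes moved by 0.27 for con-4c versus con-2c, by 0.39 for si-2c versus con-2c, by -0.26 for si-4c versus con-4c and by -0.38 for si-4c versus si-2c. The members called on the adjusted p then numbered 18 higher and 5 lower in con-4c versus con-2c and 21 higher and 3 lower in si-2c versus con-2c. They numbered 7 higher and 14 lower in si-4c versus con-4c, and 4 higher and 14 lower in si-4c versus si-2c, and 1 higher and 1 lower in si-2c versus con-4c, where the all-gene median moved by 0.12. The member median less the median of all genes was nearly the same under both scalings, -0.08 and -0.07 for con-4c versus con-2c, -0.16 and -0.16 for si-2c versus con-2c, 0.13 and 0.13 for si-4c versus con-4c, and 0.23 and 0.23 for si-4c versus si-2c. It changed with the filter on low counts. With genes kept at 1 CPM or more it was 0.0099, -0.090, 0.010 and 0.17 in the same order, over 39 members and 12837 genes, and with no filter it was -0.13, -0.29, 0.20 and 0.37, over 41 members and 29329 genes. Under library totals the calls of ATM, RBBP8, MSH3, UNG and POLB were lost for con-4c versus con-2c, and those of PALB2, UNG, POLB, FANCI and BRCA2 for si-4c versus con-4c, the last with its sign turned. For si-2c versus con-2c the lost calls were those of ATM, ATRIP, RAD51C, RAD50, XRCC2, PRKDC and LIG3, with edgeR adjusted p from 0.0574 (ATRIP) and 0.0692 (RAD51C) to 0.968 (ATM), and, with the sign turned, those of RBBP8, UNG, POLB and FANCI. For si-4c versus si-2c they were those of ATRIP, RAD51C, RAD50, RBBP8, LIG3, UNG and FANCI and, with the sign turned, ATM, BRCA2, PALB2 and POLB, and for si-2c versus con-4c those of BRCA1, LIG3 and GADD45B. NBN (-0.76) and BLM (-0.66) then stayed called for si-2c versus con-2c without reaching the minimum fold. Library totals also gave calls that TMM factors did not. Past both thresholds these were GADD45A for con-4c versus con-2c (1.17, edgeR adjusted p = 0.0254) and RAD52 (1.14, 0.00744), PMS2 (1.10, 0.0118) and GADD45A (1.13, 0.0286) for si-2c versus con-2c, all higher. Of the 15 members with no call in a comparison of 2 groups, APEX1, ATR, CHEK1, LIG4, MSH6, PARP2, PMS2, RAD52, RAD54L and XRCC5 were then called on the adjusted p, higher in con-4c or si-2c than con-2c or lower in si-4c than con-4c or si-2c. FANCD2, GADD45G, MDM2, WRN and XRCC1 were not. Statements below that a gene was not called thus hold for TMM factors. Where a direction given below for a single gene turned under library totals, this is said beside it.

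**Figure D3:**
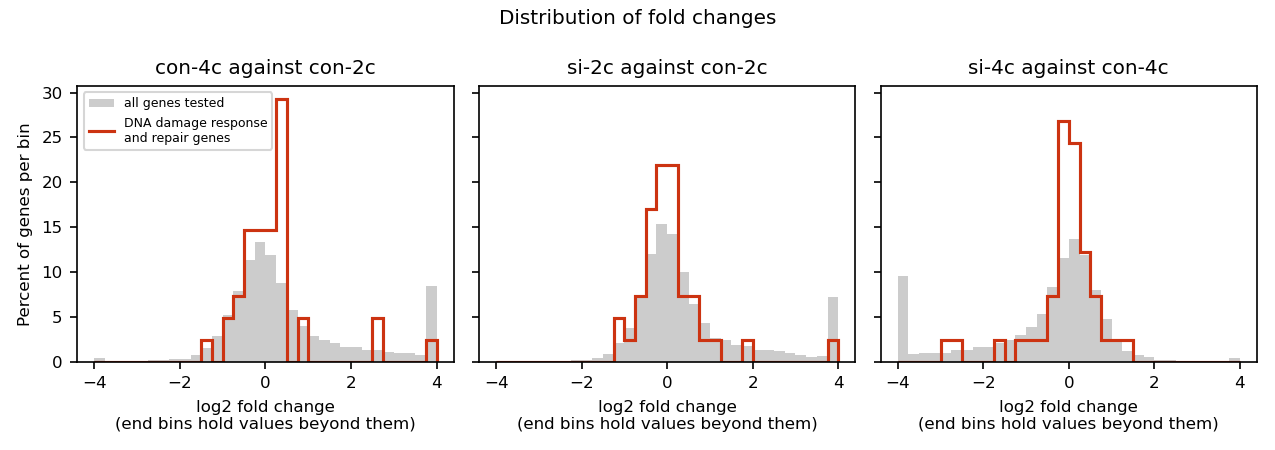
Share of genes (vertical axis, percent) by log2 fold change (horizontal axis) for the 41 genes and for all 17995 genes tested, in the comparisons named on the panels. The repair genes gather near 0, with 73.2% of them within 0.5 of no change for con-4c versus con-2c against 45.4% of all genes, which were not matched to them by level.

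Among the kinases and mediators, the largest differences were in CHEK2 (ENSSSCG00000034864, chr14:45699833-45967350 in RefSeq Sscrofa11.1), the checkpoint kinase that ATM switches on after a break. It showed 7.96, 7.31 and 7.81 CPM for con-2c libraries, 39.5, 46.3 and 47.1 for con-4c libraries, 17.8, 14.9 and 17.0 for si-2c libraries and 7.71, 5.75 and 9.02 for si-4c libraries. All con-4c libraries were above all others and all si-2c libraries lay between them and the rest, while con-2c and si-4c overlapped. The log2 fold change was 2.53 (SE 0.15, edgeR adjusted p = 9.87e-10) for con-4c versus con-2c and 1.11 (SE 0.15, adjusted p = 2.29e-05) for si-2c versus con-2c. It was -2.56 (SE 0.15, edgeR adjusted p = 7.68e-10) for si-4c versus con-4c and -1.42 (SE 0.14, adjusted p = 9.01e-06) for si-2c versus con-4c. The kinase next to it in the pathway, CHEK1, which acts below ATR, stayed between 381 and 470 CPM in every library, with log2 fold changes between -0.09 and 0.05 and no call in any comparison, though with library totals it was called in all 4 matched comparisons.

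ATRIP (ENSSSCG00000011359, chr13:31159849-31178716), the partner that brings ATR to single-stranded DNA, showed 9.61, 16.1 and 11.96 CPM for con-2c libraries, 10.1, 7.69 and 8.84 for con-4c libraries, 7.24, 7.69 and 5.02 for si-2c libraries and 9.63, 11.7 and 9.23 for si-4c libraries. All si-2c libraries lay below all libraries of the other groups, narrowly so for con-4c, and the other groups overlapped among themselves. ATRIP was lower in si-2c than con-2c by a log2 fold change of -0.92 (SE 0.21, edgeR adjusted p = 0.00266), and for con-4c versus con-2c the value was -0.50 (SE 0.21, adjusted p = 0.0694). The latter was called with no filter on low counts (edgeR adjusted p = 0.0482), without con-2c replicate 1 (-0.67, adjusted p = 0.0269) or without si-2c replicate 3 (0.0493). ATR itself was at 14.0 to 19.1 CPM over the 12 libraries and was not called, although for con-4c versus con-2c it was with DESeq2's size factors (0.30, edgeR adjusted p = 0.0428), in the DESeq2 test and with genes kept at 1 CPM or more. ATM, the kinase of broken ends, was lower in si-2c than con-2c (-0.41, SE 0.10, edgeR adjusted p = 0.00415), with levels of 143 ± 20.1 CPM over con-2c, 114 ± 4.16 over con-4c, 108 ± 9.88 over si-2c and 132 ± 5.34 over si-4c. Its value for con-4c versus con-2c, -0.32 (edgeR adjusted p = 0.0166), lost the call without con-2c replicate 1 (adjusted p = 0.0912), con-2c replicate 2 (0.0625) or con-4c replicate 3 (0.0650). TP53BP1, which binds chromatin beside a break and favours end joining, ranged from 17.2 to 29.5 CPM, and its 0.42 for con-4c versus con-2c (edgeR adjusted p = 0.0251) was lost without con-2c replicate 2 or 3 or con-4c replicate 1 or 2 (adjusted p between 0.0794 and 0.140).

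Of the p53 regulators, MDM2, the ligase that marks p53 for breakdown, was low at 1.85 to 3.75 CPM and called nowhere. Its replicates differed, with coefficients of variation of 15.5% for con-2c, 26.7% for con-4c, 24.2% for si-2c and 26.8% for si-4c. MDM4, which binds and restrains p53, ranged from 33.6 to 50.0 CPM, and its 0.34 for si-2c versus con-2c (edgeR adjusted p = 0.0169) was lost without con-2c replicate 1 (adjusted p = 0.0590), con-2c replicate 3 (0.0836) or si-2c replicate 3 (0.0612). For con-4c versus con-2c MDM4 was at 0.26 (SE 0.10, edgeR adjusted p = 0.0506). It was called there with DESeq2's size factors (0.29, edgeR adjusted p = 0.0371) and in the DESeq2 test. The same held with genes kept at 1 CPM or more, with only the groups compared, with library totals, and without con-2c replicate 2 or si-2c replicate 3.

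The GADD45 genes, small stress-induced proteins that bind PCNA and signalling kinases, were low in all libraries, and GADD45B and GADD45A differed between groups. GADD45B (ENSSSCG00000022689, chr2:76107928-76111458) showed 1.15, 1.19 and 0.769 CPM for con-2c libraries, 6.32, 6.86 and 6.99 for con-4c libraries, 3.95, 4.04 and 3.67 for si-2c libraries and 0.780, 0.896 and 1.05 for si-4c libraries. As for CHEK2, con-4c was the highest group, si-2c lay between, and con-2c and si-4c overlapped at the bottom. The difference, as log2 fold change, of GADD45B was 2.70 (SE 0.25, edgeR adjusted p = 2.23e-07) for con-4c versus con-2c, 1.91 (SE 0.25, adjusted p = 1.58e-05) for si-2c versus con-2c and -2.88 (SE 0.25, adjusted p = 1.12e-07) for si-4c versus con-4c. For si-2c versus con-4c it was -0.79 (SE 0.23, edgeR adjusted p = 0.0417), a call lost without any 1 of the 6 libraries compared and without si-4c replicate 2 or 3 (adjusted p between 0.0515 and 0.145).

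GADD45A (ENSSSCG00000037066, chr6:144940702-144944089) showed 3.28, 2.56 and 1.20 CPM for con-2c libraries, 4.25, 3.31 and 5.30 for con-4c libraries, 3.41, 5.49 and 2.75 for si-2c libraries and 1.77, 1.88 and 0.657 for si-4c libraries. Every si-4c library was below every con-4c and every si-2c library, and replicates differed more than for GADD45B. The log2 fold change was -1.58 (SE 0.41, edgeR adjusted p = 0.00657) for si-4c versus con-4c and 0.87 (SE 0.40, adjusted p = 0.106) for con-4c versus con-2c, a difference that library totals did call. GADD45G was close to the limit of detection, at 0.119 to 0.663 CPM, and called nowhere. Among 18 tested of 23 listed p53 target genes, PLK2, BTG2 and SESN2 were higher and ZMAT3 lower in con-4c than con-2c past both thresholds, and the median was -0.06. On the adjusted p alone 3 of the 18 were higher and 6 lower in that comparison, 3 higher and 4 lower in si-2c versus con-2c, and 6 higher and 4 lower in si-4c versus con-4c, beside the shares over all genes given above. PLK2, a kinase of centriole duplication, had the largest change of these, 3.27 (SE 0.26, edgeR adjusted p = 4.15e-08), and ZMAT3, an RNA-binding protein, was at -1.22 (SE 0.14, adjusted p = 3.28e-06). Past both thresholds 2 of the 18 were higher (PLK2 and SESN2) and 0 lower in si-2c versus con-2c, against 10.7% and 1.8% of all genes, and 1 was higher (ZMAT3) and 2 lower (PLK2 and FAS) in si-4c versus con-4c, against 3.12% and 15.8%.

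**Figure D4:**
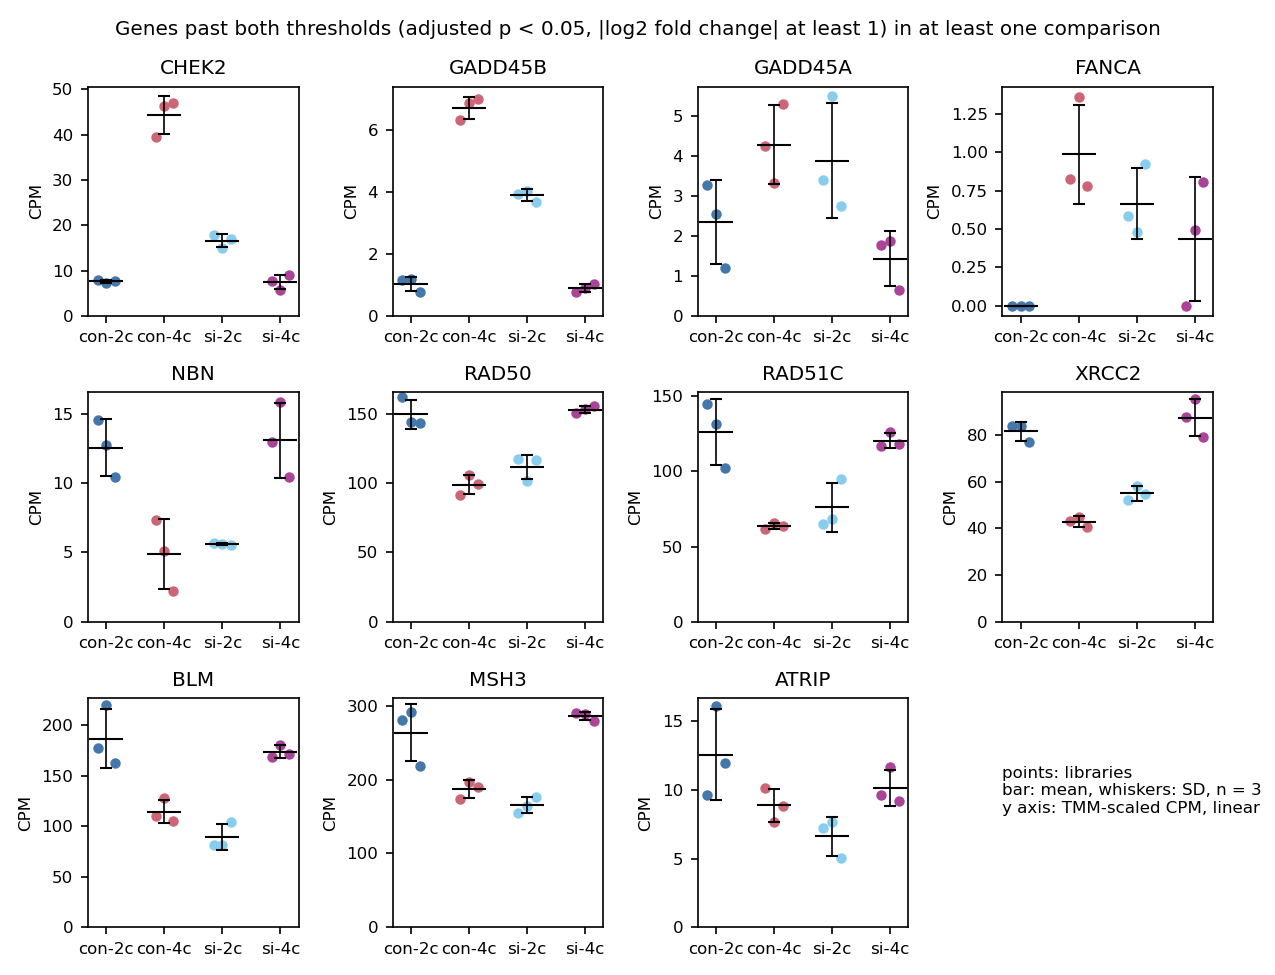
Level in every library (vertical axis, CPM on a linear scale) of the 11 genes past both thresholds in at least 1 comparison or in the interaction, with 3 points per group, a bar at the mean and whiskers of 1 SD. The con-2c and si-4c points overlap for CHEK2, GADD45B, NBN, RAD50, RAD51C, XRCC2, BLM and MSH3 and stand apart from those of con-4c and si-2c.

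The genes that trim broken ends and drive homologous recombination held 6 of the 10 members lower in con-4c than con-2c. Of 13 tested, 6 were lower in con-4c than con-2c (BLM, NBN, RAD50, RAD51C, RBBP8 and XRCC2) and 2 higher (MRE11 and BRCA1) on the adjusted p, where 15.1% of all genes were lower and 20.7% higher. The same 6 were lower in si-2c than con-2c, with MRE11 higher, against 12.3% lower and 16.6% higher over all genes. In si-4c versus con-4c 8 were higher, those 6 with PALB2 and BRCA2, and MRE11 and BRCA1 were lower, against 15.1% higher and 21.7% lower over all genes. With library totals RBBP8 turned to 0.036 for si-2c versus con-2c and BRCA2 to -0.0304 for si-4c versus con-4c. Of the 6, BLM and NBN alone then stayed called lower in si-2c than con-2c. BRCA1 (0.26), BRCA2 (0.23), PALB2 (0.48), RAD52 (1.14) and RAD54L (0.62) were gained there as higher. Library totals also added PALB2 (0.27) and RAD54L (0.57) as higher for con-4c versus con-2c, and RAD54L (-0.69) as lower for si-4c versus con-4c.

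NBN (ENSSSCG00000006127, chr4:46787664-46854331), the subunit of the end-binding complex that recruits ATM, showed 14.5, 12.7 and 10.4 CPM for con-2c libraries, 7.34, 5.07 and 2.24 for con-4c libraries, 5.70, 5.60 and 5.51 for si-2c libraries and 13.0, 15.9 and 10.5 for si-4c libraries. No library of con-4c or si-2c reached the lowest library of con-2c or si-4c. The difference, as log2 fold change, was -1.36 (SE 0.29, edgeR adjusted p = 0.00133) for con-4c versus con-2c, -1.16 (SE 0.28, adjusted p = 0.00492) for si-2c versus con-2c and 1.42 (SE 0.29, adjusted p = 0.000941) for si-4c versus con-4c. RAD50 (ENSSSCG00000014280, chr2:134844460-134939188), the subunit that tethers the ends, showed 162, 144 and 143 CPM for con-2c libraries, 91.5, 106 and 99.4 for con-4c libraries, 117, 102 and 116 for si-2c libraries and 150, 153 and 156 for si-4c libraries. Its groups were split the same way as those of NBN, at smaller folds of -0.60 (SE 0.08, edgeR adjusted p = 2.75e-05) for con-4c versus con-2c, -0.42 (SE 0.08, adjusted p = 0.00103) for si-2c versus con-2c and 0.63 (SE 0.08, adjusted p = 1.59e-05) for si-4c versus con-4c.

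MRE11, the nuclease of the same complex, differed in the other direction from NBN and RAD50. It was at 30.1 ± 2.86 CPM over con-2c, 40.7 ± 2.23 over con-4c, 36.6 ± 3.24 over si-2c and 28.5 ± 2.19 over si-4c (n = 3), higher in con-4c than con-2c by 0.44 (SE 0.10, edgeR adjusted p = 0.00336), while si-4c was lower than con-4c by a log2 fold change of -0.51 (SE 0.10, adjusted p = 0.000954). Its call for si-2c versus con-2c (0.29, edgeR adjusted p = 0.0498) was lost without each of 11 of the 12 libraries, all except con-2c replicate 1, with adjusted p between 0.0539 and 0.198. RBBP8, the cofactor that starts the trimming, was at 498 ± 56.9 CPM over con-2c, 365 ± 13.2 over con-4c, 386 ± 30.6 over si-2c and 515 ± 12.7 over si-4c. The con-4c level was lower than that of con-2c (-0.45, SE 0.09, edgeR adjusted p = 0.000593) and the si-4c level higher than that of con-4c (0.50, SE 0.09, adjusted p = 0.000239).

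XRCC2 (ENSSSCG00000032315, chr18:4808428-4834281), which takes part in strand exchange between sister chromatids, showed 83.9, 84.0 and 76.9 CPM for con-2c libraries, 43.3, 44.9 and 40.5 for con-4c libraries, 52.1, 58.2 and 54.6 for si-2c libraries and 87.9, 95.3 and 79.2 for si-4c libraries. The si-2c libraries were above all con-4c libraries and below all of con-2c and si-4c, which overlapped. The log2 fold change was -0.93 (SE 0.09, edgeR adjusted p = 3.78e-07) for con-4c versus con-2c, -0.57 (SE 0.09, adjusted p = 0.000108) for si-2c versus con-2c and 1.03 (SE 0.09, adjusted p = 1.11e-07) for si-4c versus con-4c. Its 0.36 for si-2c versus con-4c (edgeR adjusted p = 0.0197) was lost without con-4c replicate 1 (adjusted p = 0.0618), con-4c replicate 3 (0.104) or si-2c replicate 2 (0.0825). RAD51C (ENSSSCG00000023955, chr12:34975949-35018112), which acts at the same step, showed 145, 132 and 102 CPM for con-2c libraries, 61.6, 66.0 and 63.8 for con-4c libraries, 64.9, 68.4 and 94.8 for si-2c libraries and 117, 126 and 118 for si-4c libraries. Con-2c and si-4c overlapped, and every con-4c and si-2c library was below both. RAD51C differed by -0.98 (SE 0.14, edgeR adjusted p = 2.11e-05) for con-4c versus con-2c, by -0.73 (SE 0.13, adjusted p = 0.000515) for si-2c versus con-2c and by 0.92 (SE 0.14, adjusted p = 4.47e-05) for si-4c versus con-4c.

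BLM (ENSSSCG00000001816, chr7:53317515-53412649), the helicase that undoes joined recombination intermediates, showed 178, 219 and 163 CPM for con-2c libraries, 110, 128 and 105 for con-4c libraries, 81.8, 81.9 and 104 for si-2c libraries and 168, 181 and 172 for si-4c libraries. Here si-2c was the lowest group, with all its libraries below all of con-4c. BLM differed by -0.70 (SE 0.12, edgeR adjusted p = 0.000150) for con-4c versus con-2c, by -1.06 (SE 0.12, adjusted p = 3.23e-06) for si-2c versus con-2c and by 0.60 (SE 0.12, adjusted p = 0.000671) for si-4c versus con-4c. The mediators moved less. BRCA1 was at 0.28 for con-4c versus con-2c (edgeR adjusted p = 0.0147), lost without con-2c replicate 1 (adjusted p = 0.0853), con-4c replicate 2 (0.0568) or con-4c replicate 3 (0.0682), and at -0.42 for si-2c versus con-4c (SE 0.08, adjusted p = 0.00429), lost with library totals. Its -0.27 for si-4c versus con-4c (edgeR adjusted p = 0.0194) was lost without con-4c replicate 2 (adjusted p = 0.0691), con-4c replicate 3 (0.0823), si-4c replicate 1 (0.0640) or si-4c replicate 3 (0.0745). BRCA2, which acts at resected ends, was at 1008 ± 64.5 CPM over con-2c, 923 ± 44.1 over con-4c, 896 ± 71.3 over si-2c and 1079 ± 70.5 over si-4c, and its partner PALB2 was higher in si-4c than con-4c by 0.33 (SE 0.08, edgeR adjusted p = 0.00354). The call of BRCA2 for si-4c versus con-4c (0.23, edgeR adjusted p = 0.0391) was lost without con-4c replicate 1, con-4c replicate 3, si-4c replicate 2 or si-4c replicate 3 (adjusted p between 0.102 and 0.131). RAD52, RAD54L and WRN, an annealing protein, a motor protein and a helicase, were called in no comparison of 2 groups with TMM factors, while library totals called RAD52 and RAD54L, and RAD54L was called for si-4c versus con-4c without si-4c replicate 2 (-0.67, edgeR adjusted p = 0.0270).

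In end joining, XRCC6, which encodes the Ku70 subunit of the end-binding ring, differed in every matched comparison. It was at 58.8 ± 0.460 CPM over con-2c, 81.8 ± 1.89 over con-4c, 78.6 ± 10.2 over si-2c and 58.9 ± 4.35 over si-4c (n = 3). The difference, as log2 fold change, was 0.48 (SE 0.09, edgeR adjusted p = 0.000715) for con-4c versus con-2c, 0.42 (SE 0.09, adjusted p = 0.00265) for si-2c versus con-2c and -0.47 (SE 0.09, adjusted p = 0.000758) for si-4c versus con-4c. XRCC5, which encodes the Ku80 partner, was called only with library totals, at 174 to 215 CPM and with log2 fold changes between -0.15 and 0.07. PRKDC, the kinase that Ku recruits, was lower in si-2c than con-2c (-0.42, SE 0.11, edgeR adjusted p = 0.00790), and the ligase LIG4, at 14.7 to 22.9 CPM, was not called with TMM factors.

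In base excision and single-strand break repair, UNG and POLB were lower and PARP1 higher in con-4c than con-2c on the adjusted p, of 7 tested, where 15.1% of all genes were lower and 20.7% higher. The calls of UNG and POLB for this comparison were lost with library totals. UNG, the glycosylase that removes uracil, differed by -0.45 (SE 0.11, edgeR adjusted p = 0.00309) for con-4c versus con-2c, by -0.37 (SE 0.11, adjusted p = 0.0144) for si-2c versus con-2c, which turned to 0.023 with library totals, and by 0.47 (SE 0.11, adjusted p = 0.00225) for si-4c versus con-4c. POLB, the polymerase that fills the gap, was at 179 ± 5.35 CPM over con-2c, 144 ± 9.56 over con-4c, 142 ± 3.82 over si-2c and 178 ± 9.97 over si-4c. Con-4c was lower than con-2c (-0.32, SE 0.08, edgeR adjusted p = 0.00298) and so was si-2c (-0.34, SE 0.07, adjusted p = 0.00249, but 0.059 with library totals). LIG3, the ligase that seals the nick, was lowest in si-2c, at 202 ± 3.70 CPM, and differed there from con-2c by -0.49 (SE 0.08, edgeR adjusted p = 0.000151). Its -0.32 for si-2c versus con-4c (edgeR adjusted p = 0.0182) was lost without con-4c replicate 1 or 3 or si-2c replicate 1 or 2 (adjusted p between 0.0525 and 0.118). PARP1, which marks single-strand breaks with poly(ADP-ribose), was higher in con-4c than con-2c by 0.38 (SE 0.09, edgeR adjusted p = 0.00301), while PARP2, the scaffold XRCC1 and the endonuclease APEX1 were not called with TMM factors. For si-4c versus con-4c PARP1 was called lower with DESeq2's size factors (-0.26, edgeR adjusted p = 0.0302) and in the DESeq2 test. The same held with genes kept at 1 CPM or more, with only the groups compared and with library totals. APEX1 was called for con-4c versus con-2c in the DESeq2 test and with genes kept at 1 CPM or more, and library totals called PARP2 and APEX1. Without con-2c replicate 3, PARP2 was called lower in con-4c than con-2c (-0.37, edgeR adjusted p = 0.0230).

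In mismatch repair, MSH3 (ENSSSCG00000014126, chr2:89255647-89456102), which helps to bind looped-out bases, showed 280, 291 and 219 CPM for con-2c libraries, 173, 197 and 190 for con-4c libraries, 155, 164 and 176 for si-2c libraries and 290, 288 and 279 for si-4c libraries. All con-4c and si-2c libraries were below all con-2c and si-4c libraries. The log2 fold change was -0.50 (SE 0.10, edgeR adjusted p = 0.000677) for con-4c versus con-2c, -0.68 (SE 0.10, adjusted p = 5.14e-05) for si-2c versus con-2c and 0.61 (SE 0.10, adjusted p = 9.40e-05) for si-4c versus con-4c. MSH6, which helps to bind single mispairs, stayed at 80.9 to 99.5 CPM with log2 fold changes between -0.06 and 0.09, and PMS2, the nick-making subunit, ranged from 1.16 to 2.97 CPM. With TMM factors neither was called in a comparison of 2 groups, and with library totals both were.

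In the Fanconi pathway, FANCA (ENSSSCG00000024687, chr6:253207-300159), a subunit of the core ligase complex, had 0 counts in all 3 con-2c libraries, 25, 41 and 24 counts across con-4c, 24, 18 and 43 across si-2c and 0, 17 and 27 across si-4c. The con-4c and si-2c libraries were all above con-2c, and 1 si-4c library was at 0 like con-2c. Against a floor of 3 counts over the con-2c group, FANCA was at least 32.1-fold higher in con-4c (edgeR adjusted p = 0.00127) and at least 21.6-fold higher in si-2c (adjusted p = 0.00296). In si-4c the bound was at least 14.1-fold, with an edgeR adjusted p of 0.0882. The levels are low, at most 1.36 CPM in a library, and these floors cover counting error only. FANCA passed the count filter only through its counts outside con-2c. With genes kept at 1 CPM or more it was not tested. Of the pair that the core complex modifies, FANCD2 was called nowhere, at 18.5 to 27.2 CPM. FANCI was higher in si-4c than si-2c by 0.39 (SE 0.08, edgeR adjusted p = 0.000969), a call lost with library totals, and its 0.27 for si-4c versus con-4c (adjusted p = 0.0110) was lost without con-4c replicate 3 (adjusted p = 0.0510) or si-4c replicate 2 (0.0722).

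The difference between si and control libraries was then tested for a difference between the titles, as si-4c minus con-4c less si-2c minus con-2c. Past both thresholds 7 members were higher and 4 lower, where 32.4% of all genes passed (9.87% higher and 22.5% lower), but 1 was higher and 10 were lower with library totals, which added RAD52, RAD54L, PMS2, MRE11, XRCC6 and PARP1, all lower, and on the adjusted p alone 15 were higher and 7 lower, against 18.2% and 27.3% of all genes (45.5% in all). With library totals the latter split was 6 higher and 22 lower. The contrast was -3.67 (SE 0.21, edgeR adjusted p = 3.41e-10) for CHEK2, -4.79 (SE 0.35, adjusted p = 7.69e-09) for GADD45B and -2.30 (SE 0.58, adjusted p = 0.00361) for GADD45A. It was 2.59 (SE 0.41, edgeR adjusted p = 5.66e-05) for NBN, 1.66 (SE 0.17, adjusted p = 3.59e-07) for BLM, 1.65 (SE 0.19, adjusted p = 2.06e-06) for RAD51C and 1.60 (SE 0.13, adjusted p = 1.92e-08) for XRCC2. For these 7 genes the si-minus-control difference in the 2c titles thus had the sign opposite to that in the 4c titles, although GADD45A was not called in si-2c versus con-2c (0.73, edgeR adjusted p = 0.200) except with library totals (1.13, adjusted p = 0.0286).

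Comparisons that share no library can be set side by side. The overlaps below were counted with TMM factors alone. With library totals 5 members were lower in con-4c than con-2c and 4 higher in si-4c than si-2c on the adjusted p. ATM (-0.093) and POLB (-0.056) then turned sign for si-4c versus si-2c. Of the 10 members lower in con-4c than con-2c on the adjusted p, 10 were higher in si-4c than si-2c, which is 66.7% of the 15 members higher there. Over all genes, 61% of the 2716 lower in con-4c than con-2c were higher in si-4c than si-2c, 76.4% of the 2169 higher there. Of the 8 members higher in con-4c than con-2c, 4 (CHEK2, GADD45B, MRE11 and XRCC6) were lower in si-4c than si-2c, where the share over all genes was 61.2% of the 3731 higher in con-4c. As a share of the list lower in si-4c this was 80% of 5 members and 75.3% of 3034 genes. Of the 14 members lower in si-2c than con-2c, 10 were higher in si-4c than con-4c, where the share over all genes was 72.3% of the 2218 lower in si-2c. As a share of the list higher in si-4c this was 83.3% of 12 members and 58.9% of 2721 genes. Of the 6 members higher in si-2c than con-2c, 4 were lower in si-4c than con-4c, where the share over all genes was 75.6% of the 2995 higher in si-2c, and as a share of the list lower in si-4c it was 66.7% of 6 members and 58.1% of 3897 genes. No member was called in the same direction in both comparisons of either pair, and over all genes 14 were higher and 6 lower in both stage comparisons and 20 were higher and 38 lower in both si-against-control comparisons.

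A wider list of 106 other repair genes, of which 101 had a row and 99 were tested, had 3 higher and 8 lower in con-4c than con-2c past both thresholds and 11 higher and 29 lower on the adjusted p alone, with a median of -0.15. Over all genes 14.4% were higher and 3.25% lower past both thresholds, and 20.7% and 15.1% on the adjusted p. In si-2c versus con-2c 2 were higher and 3 lower past both (median -0.18), against 10.7% and 1.8% of all genes. In si-4c versus con-4c 9 were higher and 2 lower (median 0.11), against 3.12% and 15.8%, and in si-4c versus si-2c 4 were higher and 2 lower (median 0.20), against 1.47% and 11.9%. TDG, the glycosylase that removes thymine mispaired with guanine and oxidised methylcytosine, was at 0.348 ± 0.0743 CPM in con-2c, 53.5 ± 1.73 for con-4c, 22.0 ± 0.976 for si-2c, and at 0 in all si-4c libraries. It was also the only gene of this list past both thresholds in the crossed comparisons, with a log2 fold change of -1.28 for si-2c versus con-4c (SE 0.11, edgeR adjusted p = 6.28e-06). For si-4c versus con-2c, where si-4c was at 0, it also passed as lower (edgeR adjusted p = 0.000201). XPA, the damage verifier of nucleotide excision repair, was at 91.5, 39.95, 53.8 and 85.8 CPM on average in the groups as ordered above, lower in con-4c than con-2c by a log2 fold change of -1.20 (SE 0.07, edgeR adjusted p = 1.72e-09). The replication clamp PCNA (-1.18, SE 0.11, edgeR adjusted p = 2.45e-07) and RPA2 (-1.005, SE 0.11, adjusted p = 2.57e-06), a subunit that coats single-stranded DNA, were lower too, whereas MDC1, a mediator at broken ends, was higher (3.38, SE 1.05, edgeR adjusted p = 0.0181). MDC1 was close to the limit of detection, at 0.0955 ± 0.165 CPM in con-2c and 1.02 ± 0.312 in con-4c.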

How the data were processed

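SMART-seq libraries of 12 pools of porcine embryos were analysed from the table of raw counts per Ensembl gene that the authors deposited, whole numbers without normalization. The submitters' processing notes name cutadapt 1.9, HISAT2 2.2.1, StringTie 2.1.6, DESeq2, edgeR and Sscrofa11.1. The counting program, annotation release, use of strand and treatment of multiply matching reads are not given in the sources used here, so overlapping genes, antisense genes and near-identical copies can share reads. Groups were taken from titles. The members and gene lists were chosen with earlier results of these data known.

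Tests on the counts used edgeR 4.0.16 under R 4.3.3 (filterByExpr, TMM factors 0.852 to 1.21, quasi-likelihood fit of 4 group means to 12 libraries, biological coefficient of variation 27.3%). P-values were adjusted by Benjamini-Hochberg over 17995 genes and called below 0.05, with and without a minimum log2 fold change of 1 in size. SE is the log2 fold change over the square root of F. CPM was computed from the deposited counts. Amplified reads carry no molecular identifiers, and nothing in the labels says that replicates came from separate cultures, so p-values measure only the spread between these samples, which may be technical. Within groups no library repeated another, since counts of replicates differed beyond sampling error (chi-square over its degrees of freedom, 7.27 to 38.7 in 12 pairs). Pairs across groups were not checked. The fit was tested on simulated data. DESeq2 1.42.0, other scalings and filters, fits to the compared groups, a replicate block and leaving out each library were alternatives.

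All 41 identifiers matched their symbol in the name table, and gene positions are those of RefSeq Sscrofa11.1. Genes given in every library passed both thresholds somewhere; from the wider lists the 3 with the smallest p in each direction in con-4c versus con-2c, with libraries apart, were named, except 1 that is not reported here. TDG in the crossed comparison was also named after its values were seen. No promoter or protein sequence was used here.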

Additional observations from a re-analysis of the deposited data

Results flagged for a closer look

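The difference between si and control libraries differed between the 2c and 4c titles for 11 of the 41 genes by the edgeR test of that difference itself, with an adjusted p under 0.05 and a contrast of 1 or more in size. The contrast was -4.79 for GADD45B, -3.67 for CHEK2 and -2.30 for GADD45A. For FANCA it was -8.71, a fitted value that depends on the prior count because con-2c had 0 counts. It was 2.59 for NBN, 1.66 for BLM, 1.65 for RAD51C, 1.60 for XRCC2, 1.29 for MSH3, 1.12 for ATRIP and 1.05 for RAD50. The contrast of ATRIP was 0.90 without con-2c replicate 2 and 0.95 without si-2c replicate 3, and that of RAD50 was 0.999 without con-2c replicate 1 and 0.99 without si-2c replicate 2. The contrast of RAD50 was also under 1 with DESeq2's size factors (0.996), in the DESeq2 test (0.996) and with genes kept at 1 CPM or more (0.99), where FANCA was not tested. With library totals ATRIP lost its call (0.46, edgeR adjusted p = 0.209), and RAD50 (0.39), MSH3 (0.63), RAD51C (0.98), XRCC2 (0.94) and BLM (0.999) fell below the minimum contrast. Over all genes 32.4% passed the same thresholds, and the groups of 3 libraries were too small to be screened for single outlying libraries.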

How the results depend on the processing

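Of 103 calls of single genes on the adjusted p, 50 kept their direction and call under every alternative run for them. The fit with only the groups compared was run for 81 of these and the filter at 1 CPM for 100. Without the minimum fold the members called numbered 18 for con-4c versus con-2c, 20 for si-2c versus con-2c, 18 for si-4c versus con-4c, 20 for si-4c versus si-2c, 5 for si-2c versus con-4c and 22 for the interaction. In si-4c versus con-2c the count past both thresholds was 1 with DESeq2 and 1 with no filter. With library totals the member median moved to 0.31, 0.36, -0.24 and -0.28 in the matched comparisons in the order above and to 0.047 in si-2c versus con-4c. It was -0.024 for si-4c versus con-4c and 0.080 for si-4c versus si-2c with DESeq2's size factors and likewise -0.024 and 0.080 in the DESeq2 test, -0.021 and 0.13 with genes kept at 1 CPM or more, and -0.036 for si-2c versus con-4c with only the groups compared. Library totals turned the sign of 14 results, none of which was then called (edgeR adjusted p from 0.0720 to 0.957): ATM (si-4c versus si-2c -0.093, interaction -0.050), BRCA2 (si-4c versus con-4c -0.0304, si-4c versus si-2c -0.11, interaction -0.26), PALB2 (si-4c versus si-2c -0.14), RBBP8 (si-2c versus con-2c 0.036), PRKDC (interaction -0.21), UNG (si-2c versus con-2c 0.023), POLB (si-2c versus con-2c 0.059, si-4c versus si-2c -0.056, interaction -0.0084) and FANCI (si-2c versus con-2c 0.16, interaction -0.14). The scaling itself, which shifted the median of all genes, is the only setting changed in these. The interaction of CCNB2 was 0.23 with library totals (edgeR adjusted p = 0.299).

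With 1 library left out, the members past both thresholds numbered 4 to 5, 4 to 6, 4 to 5, 3 to 5, 0 to 1 (si-4c versus con-2c), 1 to 1 (si-2c versus con-4c) and 10 to 12 (interaction). The member medians ranged from -0.01 to 0.08, -0.08 to -0.01, -0.01 to 0.05, 0.046 to 0.18, -0.024 to 0.041 and -0.14 to -0.040 in the same order. CCNB2 ranged from -0.031 to 0.10, -4.56 to -4.21, -3.55 to -3.42, 0.76 to 1.11, -3.52 to -3.41, -4.59 to -4.24 and 0.74 to 1.09, the first turning to -0.031 without con-2c replicate 3 and to -0.029 without con-4c replicate 1. The replicate numbers did not pair the libraries (correlations of same-numbered libraries -0.0495 to 0.0290 over 18 pairs, none over 0.1, and 3 of 12 libraries correlated best with their own number). A replicate block left the counts past both thresholds at 4, 5, 5, 4, 0, 1 and 11 and lost 4 calls on the adjusted p, ATM in si-4c versus si-2c (edgeR adjusted p = 0.0554), BRCA2 in si-4c versus con-4c (0.0546), PRKDC in the interaction (0.0501) and GADD45B in si-2c versus con-4c (0.0730). GADD45G had 4 to 23 counts in a library, so that differences within their spread were not detectable at this depth.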
